A study of Drosophila melanogaster with 3 samples.

Results

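The Cpr genes of Drosophila melanogaster encode cuticle proteins that carry the Rebers and Riddiford consensus, the chitin-binding sequence of arthropod cuticle, and most are named by the cytological band they lie in. They were taken as the protein-coding genes whose symbol is Cpr followed by a band number, which gave 70 of 13945 protein-coding genes. Cpr itself, the cytochrome P450 reductase gene, was not among them. The data are chromatin immunoprecipitation with sequencing (ChIP-seq) of Blimp-1 in whole embryos of 10 to 12 h, from a transgenic line that stably expressed the protein with GFP at its C terminus. An antibody against GFP was used on chromatin sonicated to 200 to 800 bp. The 3 biological replicates form 1 group, and there is no wild-type, untagged or mutant group. The labels name neither the promoter nor the copy number of the transgene, nor whether the line kept its endogenous Blimp-1. In whole embryos, strong binding in few cells and weak binding in many cells cannot be told apart. The age is that of the source name, since the age entry of the labels holds an implausible number of hours.

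Blimp-1 is a zinc finger protein of the PRDM1 type that binds DNA. It is induced by the steroid hormone ecdysone, acts as a repressor of ftz-f1 in prepupae, and is needed in embryos for the tracheal tubes and the cuticle. Insect cuticle is laid down by epidermal and tracheal cells as layers of chitin fibres in a matrix of proteins, and Rebers and Riddiford proteins bind those fibres. Flies make a new cuticle for the larva, the pupa and the adult, and separate sets of Cpr genes serve these stages. Many Cpr genes lie in tandem runs that arose by duplication.

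Of the 19 peaks within 1 kb of a Cpr transcription start site (TSS), 7 (36.8%) held a short word within 50 bp of their summits. The word was CGAAAG, or CTTTCG on the other strand. Among all summits of the thresholded list described below, 10.6% held it. It was picked after its counts had been seen, so these shares are a description. The windows shown are the 101 bases centred on the summit (50 on either side), read 5′ to 3′ on the strand of the gene from the Release 6 genome (dm6) of RefSeq. Of the 7 summits within 1 kb that held the word, 6 are shown, and the capitals mark it.
Cpr97Eb (chr3R:27091298-27091398, minus strand): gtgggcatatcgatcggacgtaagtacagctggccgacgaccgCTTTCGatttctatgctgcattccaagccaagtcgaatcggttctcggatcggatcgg
Cpr78Ca (chr3L:21293114-21293214, minus strand): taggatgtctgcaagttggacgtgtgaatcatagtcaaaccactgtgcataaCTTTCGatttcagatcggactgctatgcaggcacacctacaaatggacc
Cpr23B (chr2L:2838188-2838288, plus strand): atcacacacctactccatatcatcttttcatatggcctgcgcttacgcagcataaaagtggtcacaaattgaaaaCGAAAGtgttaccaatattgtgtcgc
Cpr72Eb (chr3L:16364333-16364433, plus strand): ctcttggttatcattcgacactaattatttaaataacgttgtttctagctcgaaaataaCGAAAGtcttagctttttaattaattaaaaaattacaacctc
Cpr100A (chr3R:30867218-30867318, plus strand): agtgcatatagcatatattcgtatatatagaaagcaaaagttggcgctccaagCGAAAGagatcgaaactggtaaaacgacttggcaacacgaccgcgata
Cpr65Aw (chr3L:6141576-6141676, minus strand): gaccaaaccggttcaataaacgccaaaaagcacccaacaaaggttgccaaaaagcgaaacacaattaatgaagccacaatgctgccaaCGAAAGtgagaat

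The word GAAAC, also picked after its counts had been seen, was at 9 of the 19 summits (47.4%). Among all summits of the thresholded list, 24.0% held it. The summits near Cpr31A and Cpr65Eb are shown because they held it in runs, with 5 copies at Cpr31A and 3 copies at Cpr65Eb. The capitals mark GAAAC, or GTTTC on the other strand.
Cpr31A (chr2L:10053877-10053977, plus strand): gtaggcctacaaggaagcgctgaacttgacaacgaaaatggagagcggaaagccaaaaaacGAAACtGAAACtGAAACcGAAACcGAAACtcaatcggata
Cpr65Eb (chr3L:7089023-7089123, minus strand): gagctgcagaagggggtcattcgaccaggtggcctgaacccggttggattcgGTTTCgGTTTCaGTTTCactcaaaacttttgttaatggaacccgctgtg

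The Blimp-1 site, AGCGAAAG or AGTGAAAG on either strand, was found at 1 summit within 1 kb of a Cpr gene, that of Cpr100A shown above with the shorter word in capitals. It was also found at both peaks of the Cpr78C cluster that lay beyond 1 kb and had a Cpr gene as nearest TSS. Over all Cpr genes there were 13 peaks of that kind, and no other of them held the site. Among all summits of the thresholded list described below, 6.31% held it. Capitals in the windows below mark the whole site, which contains CGAAAG.
Cpr78Cc (chr3L:21301914-21302014, plus strand): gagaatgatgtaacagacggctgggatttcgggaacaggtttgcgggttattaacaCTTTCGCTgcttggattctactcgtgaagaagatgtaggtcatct
Cpr78Ca (chr3L:21291231-21291331, minus strand): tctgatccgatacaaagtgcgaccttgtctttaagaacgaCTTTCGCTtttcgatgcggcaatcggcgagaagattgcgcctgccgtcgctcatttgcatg

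An irreproducible discovery rate (IDR) threshold set by the authors had left 9515 peaks, and a summit of this list lay within 1 kb of a TSS of 17 Cpr genes. They were Cpr23B, Cpr31A, Cpr49Af, Cpr49Ag, Cpr64Aa, Cpr65Av, Cpr65Aw, Cpr65Ay, Cpr65Az, Cpr65Ea, Cpr65Eb, Cpr67Fb, Cpr72Eb, Cpr73D, Cpr78Ca, Cpr97Eb and Cpr100A. The share was 24.3% of the 70 Cpr genes (95% Wilson interval 15.8% to 35.5%), against 24.9% of all protein-coding genes. Within 500 bp the share was 11.4% of Cpr genes (8 genes, 5.91% to 21.0%), against 20.5% of all protein-coding genes. By nearest protein-coding TSS at any distance it was 30.0% of Cpr genes (21 genes, 20.5% to 41.5%), against 28.5% of all protein-coding genes. In this list the family was therefore near the background at 1 kb and by nearest TSS, and below it at 500 bp, where the background lay inside the upper end of the interval. The intervals cover counting error only, and neighbouring genes can share a peak. No test was made on these shares, because the family was chosen with earlier results of these data known.

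**Figure D1:**
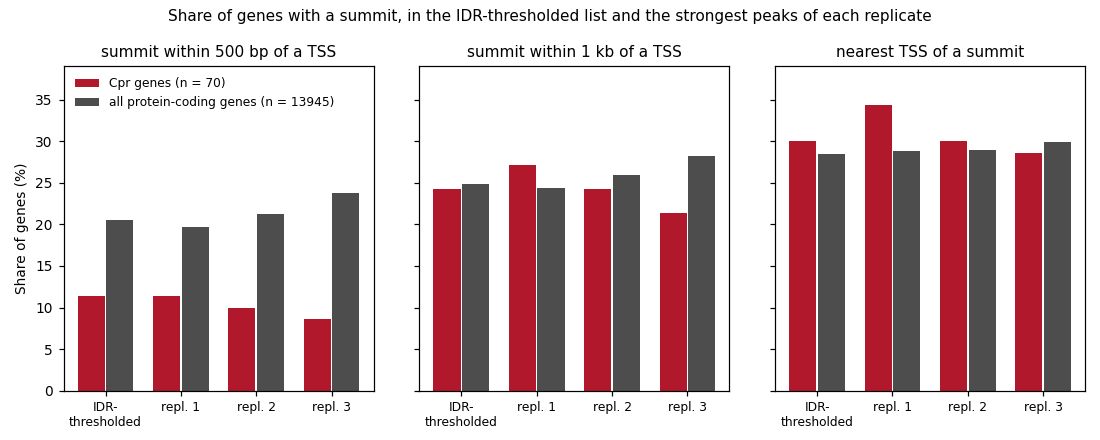
Share of genes, in percent, with a summit by each of the 3 assignments (panels), for the IDR-thresholded list and for the 9515 strongest peaks of each replicate. Red bars are the 70 Cpr genes and grey bars all 13945 protein-coding genes; the red bars are below the grey ones in every list at 500 bp (11.4% against 20.5% in the IDR-thresholded list).

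The replicates gave the same picture when each was cut to its 9515 strongest peaks. Within 1 kb, 27.1%, 24.3% and 21.4% of Cpr genes had a summit in replicates 1, 2 and 3, which is 24.3% ± 2.86 (SD, n = 3). The same shares of all protein-coding genes were 24.4%, 25.9% and 28.2%, or 26.2% ± 1.92, so that the replicate ranges overlapped. Within 500 bp the shares of Cpr genes were 11.4%, 10.0% and 8.57%, against 19.7%, 21.2% and 23.8% of all protein-coding genes. Every replicate was lower for the Cpr genes at this distance, and the ranges did not overlap. By nearest TSS the shares of Cpr genes were 34.3%, 30.0% and 28.6%, against 28.8%, 29.0% and 29.9% of all protein-coding genes, and these ranges overlapped. The replicates share a control alignment, and the same 70 genes enter each share.

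Of the 17 Cpr genes, 14 also had a summit within 1 kb among the strongest peaks of all 3 replicates. Cpr65Av and Cpr100A had one in 2 replicates, and Cpr65Ea had one in 1 replicate. Cpr47Ec had one in 2 replicates, and Cpr62Bc and Cpr11A in 1 replicate each, without a summit in the IDR-thresholded list. The remaining 50 Cpr genes had none in any replicate's 9515 strongest peaks. No count of this kind over all protein-coding genes stands beside these, so they describe the Cpr genes only. Any summit within 1 kb counted, which need not be the same peak. Cpr65Az and Cpr67Fb are among the 14 genes. None of their IDR-thresholded peaks within 1 kb had a summit within 100 bp in all 3 replicates.

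Cpr genes differ from other genes in the number of start sites they carry, and the part of this number in the shares was not tested. In the annotation 90.0% of Cpr genes had 1 TSS, against 73.5% of all protein-coding genes. Among genes with 1 TSS, 25.4% of Cpr genes (16 of 63) had a summit within 1 kb, against 18.5% of protein-coding genes (1895 of 10246). Within 500 bp the shares were 12.7% of Cpr genes and 14.7% of protein-coding genes with 1 TSS. By nearest TSS they were 33.3% of Cpr genes and 22.2% of protein-coding genes with 1 TSS. The shortfall at 500 bp was thus smaller against genes with 1 TSS, and at 1 kb and by nearest TSS the Cpr share was the higher one. This choice of genes to set beside the family was made after the data had been seen.

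Among genes with a summit within 1 kb, the nearest summit was more often over 500 bp away for Cpr genes. Of the 17 Cpr genes, 9 (52.9%) had their nearest summit between 500 bp and 1 kb away, against 610 of 3467 protein-coding genes (17.6%) with a summit within 1 kb. The share among protein-coding genes with 1 TSS was 20.3%. In the strongest peaks of replicates 1, 2 and 3 it was 57.9%, 58.8% and 60.0% for Cpr genes, against 19.1%, 18.0% and 15.6% for all protein-coding genes. The 9 genes were Cpr49Af, Cpr49Ag, Cpr64Aa, Cpr65Aw, Cpr65Ay, Cpr65Az, Cpr65Ea, Cpr72Eb and Cpr73D. Among them Cpr49Af and Cpr49Ag shared 1 peak. The summits at Cpr65Ay and Cpr73D were nearer to the TSS of another gene, CG13297 (458 bp) and Ogdh (538 bp). The share rests on 17 genes, and no interval or test was made for it. Cpr67Fb, at 427 bp, was the gene just inside the 500 bp limit, and Cpr72Eb, at 516 bp, was just outside it. Cpr49Af, at 970 bp, was just inside the 1 kb limit, and Cpr78Cb, at 1328 bp, was just outside it.

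**Figure D2:**
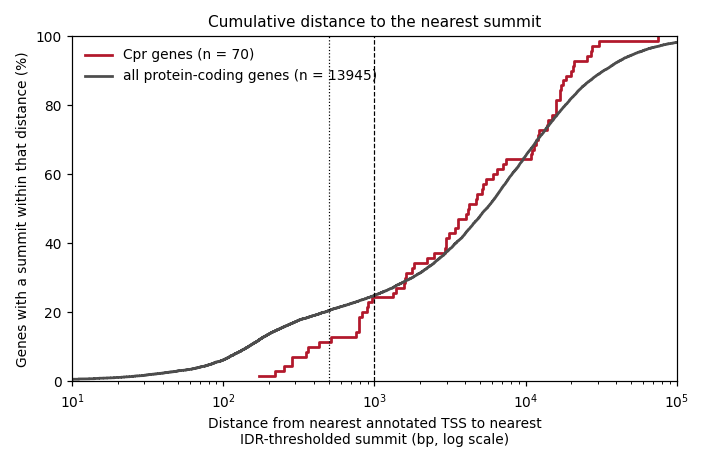
Cumulative share of genes, in percent, against the distance in bp (log scale) from an annotated TSS to the nearest IDR-thresholded summit, for 70 Cpr genes (red) and 13945 protein-coding genes (grey). Dotted and dashed lines mark 500 bp and 1 kb. The red line starts at 173 bp and stays below the grey one at 500 bp (11.4% against 20.5%), and both are close at 1 kb (24.3% against 24.9%).

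Over the whole family the median distance to the nearest IDR-thresholded summit was 4176 bp for Cpr genes, against 5497 bp for all protein-coding genes. The nearest was that of Cpr23B at 173 bp, and the farthest that of Cpr92F at 74900 bp. A distance of 1 to 5 kb was found for 30.0% of Cpr genes (21 genes), against 23.0% of all protein-coding genes. A distance over 10 kb was found for 35.7% of Cpr genes (25 genes), against 34.8% of all protein-coding genes.

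A total of 19 peaks lay within 1 kb of the 17 genes. Cpr65Aw, Cpr65Ea and Cpr67Fb had 2 peaks each, and Cpr49Af and Cpr49Ag shared 1 peak. The summit was upstream of the nearest Cpr TSS in 15 of the 19 peaks (78.9%), against 67.5% of the 3569 peaks within 1 kb of any protein-coding TSS. The first share refers to the nearest Cpr TSS, and the second to the nearest TSS of any protein-coding gene. These can differ where another gene is nearer. By annotation 10 summits were in a promoter (within 500 bp of a TSS of any gene), 6 were intergenic, 2 were in introns and 1 was in a 3′ UTR. Of the 3569 peaks, 77.0% were in a promoter and 5.46% were intergenic. A summit within 500 bp of a TSS cannot by definition count as intergenic. For 3 of the 19 peaks the nearest TSS was that of another gene: Ogdh at Cpr73D, CG13297 at Cpr65Ay and Lcp65Ad at 1 of the peaks of Cpr65Aw. A peak within 1 kb of 2 genes cannot be assigned to either of them from these data.

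Peak strength is the signal value of the authors' lists, whose scale the sources do not state, and ranks count from 1 at the highest signal. The 19 peaks had signal values of 216.8 to 1278, within a list that ran up to 25918. Their median rank was 5738, against 4187 for all peaks within 1 kb of a protein-coding TSS, and 57.9% of them (11 peaks) were outside the 4757 strongest peaks, against 44.3%. The best placed ranked 1209. With the 4757 strongest peaks alone, 12.9% of Cpr genes (9 genes) had a summit within 1 kb, against 15.9% of all protein-coding genes. Within 500 bp it was 5.71% of Cpr genes, against 12.8%, and by nearest TSS 15.7% of Cpr genes, against 19.5%. A summit within 100 bp was present among the strongest peaks of all 3 replicates for 12 of the 19 peaks (63.2%), against 69.9% of all IDR-thresholded peaks.

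The strongest of these peaks was that of Cpr97Eb (chr3R:27091089-27091589, dm6). Its summit lay 218 bp upstream of the TSS, with a signal of 1278.3 and rank 1209. Its ranks in replicates 1, 2 and 3 were 1122, 1126 and 1592, a mean of 1280 ± 270 (SD, n = 3). All 3 replicates thus placed it among their strongest peaks. It lay in the promoter of Cpr97Eb with no other protein-coding TSS within 1 kb.

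The peak at Cpr73D (chr3L:16956735-16957143) had a signal of 911.1 and rank 1960. Its ranks in replicates 1, 2 and 3 were 2173, 2384 and 1478, a mean of 2010 ± 474 (SD, n = 3). The summit was 788 bp downstream of the Cpr73D TSS, in an intron of both Cpr73D and Ogdh. The TSS of Ogdh, which encodes a subunit of the 2-oxoglutarate dehydrogenase complex, was nearer, at 538 bp.

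The peak between Cpr49Af and Cpr49Ag (chr2R:12406737-12407087) had a signal of 752.3 and rank 2501. Its ranks in replicates 1, 2 and 3 were 2539, 2351 and 2921, a mean of 2600 ± 290 (SD, n = 3). The summit lay 891 bp upstream of Cpr49Ag and 970 bp downstream of the start of Cpr49Af, in the 3′ UTR of Cpr49Af. This 1 peak therefore accounts for 2 of the 17 genes.

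The near peak of Cpr78Ca (chr3L:21292847-21293375) had a signal of 750.3 and rank 2506, with its summit 364 bp upstream of the TSS. Its ranks in replicates 1, 2 and 3 were 1864, 3404 and 3309, a mean of 2860 ± 863 (SD, n = 3), with replicate 1 the highest placed. Cpr31A (chr2L:10053779-10054101) had a summit 286 bp upstream, with a signal of 588.9 and rank 3363. Its ranks were 2769, 4200 and 3835, a mean of 3600 ± 744 (SD, n = 3), and again replicate 1 placed it highest. The noncoding RNA gene lncRNA:CR44875 has a TSS within 500 bp of the same summit. Cpr64Aa (chr3L:4209800-4210043) had a summit 751 bp upstream, in an intron of CG43367, with a signal of 499.6 and rank 4049. Its ranks were 4767, 3665 and 4326, a mean of 4250 ± 555 (SD, n = 3).

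The other 13 peaks ranked from 4232 (Cpr23B) to 9179 (Cpr67Fb). Some of them changed rank widely between replicates. At Cpr67Fb, 2 summits lay 630 and 427 bp upstream, and the first had no match in replicate 1 while the second had none in replicate 3. The second ranked 5191 in replicate 1 and 19171 in replicate 2. Cpr100A ranked 5916 in replicate 1, 7223 in replicate 2 and 12604 in replicate 3, so that it was among the strongest 9515 peaks of 2 replicates.

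**Figure D3:**
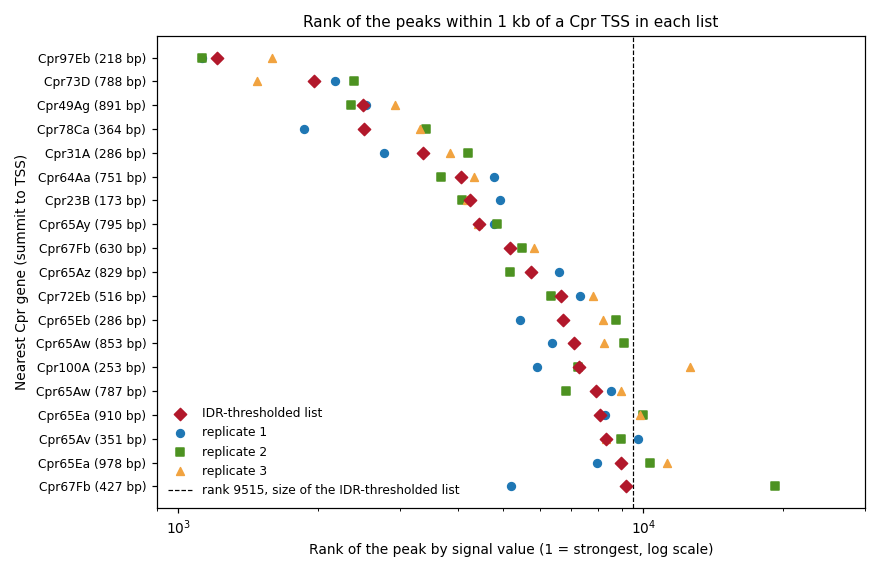
Rank by signal value (log scale, 1 is strongest) of the 19 peaks within 1 kb of a Cpr TSS, in the IDR-thresholded list (diamonds) and where matched within 100 bp in the full list of each replicate (other symbols). Rows name the nearest Cpr gene and the distance. The dashed line is rank 9515, the size of the IDR-thresholded list. The replicate ranks run from 1122 to 1592 at Cpr97Eb and from 5916 to 12604 at Cpr100A.

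Beyond 1 kb a further 13 peaks had a Cpr gene as nearest protein-coding TSS, and 7 Cpr genes were nearest to a summit only in this way. The strongest was that of Cpr78Cc (chr3L:21301670-21302252), with a signal of 2595.4 and rank 341. Its summit lay 1384 bp downstream of the TSS, past the end of the gene, at the promoters of the noncoding genes asRNA:CR45952 and lncRNA:CR45432. Its ranks in replicates 1, 2 and 3 were 437, 248 and 394, a mean of 360 ± 99.1 (SD, n = 3), higher than those of any peak within 1 kb of a Cpr gene. Cpr92A was nearest to a peak of rank 1317 that lay 13979 bp downstream, in an intron of Dys, the dystrophin gene. Cpr49Ae had a peak of rank 2023 in its own intron, 1568 bp downstream of its TSS. It ranked 1247, 2836 and 3224 in replicates 1, 2 and 3.

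**Figure D4:**
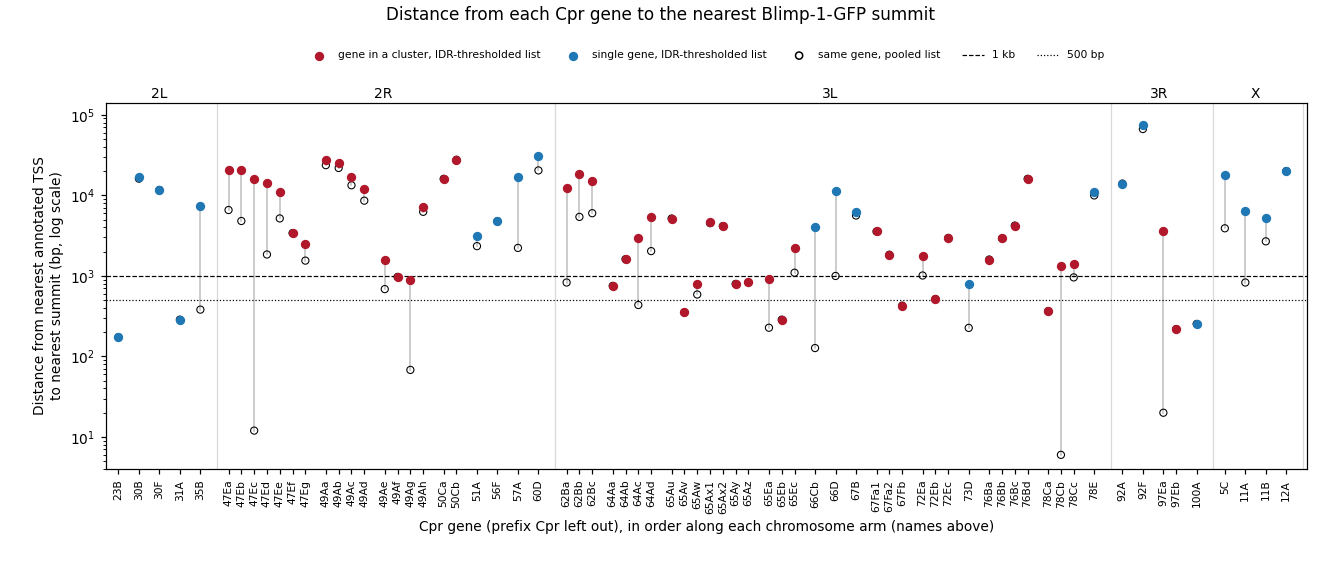
Distance in bp (log scale) from an annotated TSS of each of the 70 Cpr genes to the nearest summit, in order along the chromosome arms. Filled points are the IDR-thresholded list (red, genes in clusters; blue, single genes) and open circles the pooled list. Dashed and dotted lines mark 1 kb and 500 bp; 17 filled points are at or under 1 kb and 28 open circles are.

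Clusters were runs of Cpr genes at most 10 kb apart. There were 13 of them, which held 49 genes, and 21 genes were single. Within 1 kb of a summit were 26.5% of clustered genes (13 of 49) and 19.0% of single genes (4 of 21). Within 500 bp they were 10.2% of clustered genes (5 genes) and 14.3% of single genes (3 genes), and by nearest TSS 28.6% of clustered genes and 33.3% of single genes. The order of clustered and single genes thus turned with the assignment. In the strongest peaks of the replicates, 26.5% ± 2.04 of clustered genes and 19.0% ± 4.76 of single genes had a summit within 1 kb (SD, n = 3). The median distance was 2986 bp for clustered genes and 7377 bp for single genes. Genes of a cluster share peaks and are not independent, so no test was made.

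Peaks were unevenly spread over the clusters. Of the 13 clusters, 8 had at least 1 gene within 1 kb of a summit, and the other 5 held 20 genes. The Cpr65A and Cpr65E clusters on 3L held 6 of the 13 clustered genes with a summit. On 3L 31.4% of Cpr genes (11 of 35) had a summit within 1 kb, against 27.2% of all protein-coding genes of that arm. On 2R it was 9.52% of Cpr genes (2 of 21), against 24.3% of all protein-coding genes of that arm. These 2 genes, Cpr49Af and Cpr49Ag, share 1 peak. The Wilson intervals of the Cpr shares were 18.6% to 48.0% on 3L and 2.65% to 28.9% on 2R. Both held the share of all protein-coding genes, so neither arm showed a difference beyond counting error. On X 0 of 4 Cpr genes had a summit within 1 kb, against 25.0% of all protein-coding genes of that arm. The X holds too few Cpr genes to show a difference. On 2L and 3R 2 of 5 Cpr genes each had one, against 23.4% and 25.1% of all protein-coding genes of those arms. These arms also hold too few Cpr genes to show a difference.

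The 2 largest clusters have 7 Cpr genes each and differed. Cpr65Au to Cpr65Az covers 30348 bp of 3L (chr3L:6131242-6161589) and also holds 11 other protein-coding genes, most of them Lcp65A genes, which encode larval cuticle proteins of the same type. In it or within 1 kb of it were 7 summits, or 2.16 per 10 kb, against 0.711 per 10 kb over the arms. Summits lay within 1 kb of Cpr65Av (351 bp), Cpr65Aw (787 bp), Cpr65Ay (795 bp) and Cpr65Az (829 bp). Cpr65Au (5149 bp), Cpr65Ax1 (4721 bp) and Cpr65Ax2 (4144 bp) had none. Around the TSS of Cpr65Ax1 and Cpr65Ax2, 73.6% and 71.5% of 50-base words also occurred elsewhere in the genome, so that reads from these near-identical genes may not have been placed. No other Cpr gene had such a share over 10%. The strongest peak of the cluster, rank 1309, had the adult cuticle gene Acp65Aa as nearest TSS, at 2256 bp. In the strongest peaks of replicates 1, 2 and 3, 3, 4 and 4 of the 7 Cpr genes had a summit within 1 kb.

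Cpr47Ea to Cpr47Eg covers 26695 bp of 2R (chr2R:11251751-11278445). It held 1 IDR-thresholded summit, of rank 2805, or 0.348 per 10 kb. None of its 7 Cpr genes was within 1 kb of it, and the distances ran from 2475 bp (Cpr47Eg) to 20803 bp (Cpr47Eb). In the pooled list Cpr47Ec had a summit 12 bp from its TSS, of rank 20930. That gene ranked 8765 in replicate 1, 8345 in replicate 2 and 28883 in replicate 3.

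**Figure D5:**
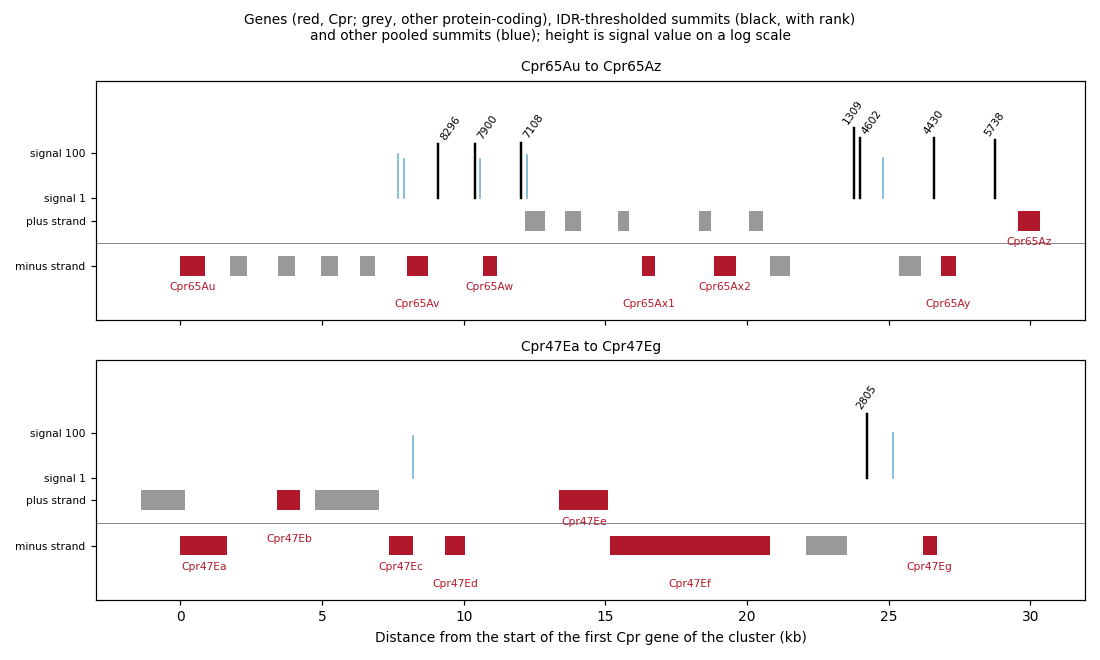
Map of the 2 largest clusters, each with 7 Cpr genes: distance in kb from the start of the first Cpr gene on the horizontal axis, genes as boxes on the plus or minus strand (red, Cpr; grey, other protein-coding). Vertical lines are summits (black, IDR-thresholded, with rank; blue, pooled list only), with height as signal value on a log scale. The Cpr65A cluster has 7 black lines and the Cpr47E cluster 1.

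Among the smaller clusters, Cpr65Ea to Cpr65Ec had the densest peaks, with 4 summits in 7839 bp. Cpr78Ca to Cpr78Cc had 3 summits, of ranks 341, 1474 and 2506, and all 3 of its genes lay within 364 to 1384 bp of a summit. Cpr49Ae to Cpr49Ah had 2 summits, of ranks 2023 and 2501. Cpr67Fa1 to Cpr67Fb also had 2 summits, both upstream of Cpr67Fb. Cpr64Aa to Cpr64Ad and Cpr72Ea to Cpr72Ec had 1 summit each, near the first and the second of their genes. Cpr76Ba to Cpr76Bd had 1 summit, of rank 3302, which lay 1595 bp from Cpr76Ba. Cpr97Ea and Cpr97Eb, a cluster of 2 genes, had the peak at Cpr97Eb. Cpr49Aa to Cpr49Ad, Cpr62Ba to Cpr62Bc and the pair Cpr50Ca and Cpr50Cb had no IDR-thresholded summit in them or within 1 kb. Cpr49Aa to Cpr49Ad and the pair lacked one in the pooled list as well. The genes of Cpr49Aa to Cpr49Ad were 12085 bp or more from the nearest IDR-thresholded summit.

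The pooled list holds 30000 peaks, of which the IDR-thresholded peaks are the strongest. In it 40.0% of Cpr genes (28 genes) had a summit within 1 kb, against 38.1% of all protein-coding genes. Within 500 bp it was 24.3% of Cpr genes (17 genes), against 33.1% of all protein-coding genes. By nearest TSS it was 52.9% of Cpr genes (37 genes, 95% Wilson interval 41.3% to 64.1%), against 39.9% of all protein-coding genes. In this longer list the family was thus above the background by nearest TSS, close to it at 1 kb and below it at 500 bp. At 500 bp the background lay inside the upper end of the 95% Wilson interval (15.8% to 35.5%). The 11 genes added at 1 kb were Cpr35B, Cpr47Ec, Cpr49Ae, Cpr62Ba, Cpr64Ac, Cpr66Cb, Cpr66D, Cpr78Cb, Cpr78Cc, Cpr97Ea and Cpr11A. Some of the added summits lay at the start site itself, at 6 bp for Cpr78Cb, 12 bp for Cpr47Ec and 20 bp for Cpr97Ea, with ranks of 19658, 20930 and 22687. They fell below the authors' threshold. No pooled summit lay within 1 kb of 42 Cpr genes (60.0%), against 61.9% of all protein-coding genes.

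The full lists of the replicates, also of 30000 peaks each, gave the same direction by nearest TSS and within 500 bp. Within 1 kb they gave the other direction, though within counting error. By nearest TSS 55.7%, 51.4% and 52.9% of Cpr genes had a summit in replicates 1, 2 and 3, against 44.1%, 42.8% and 44.3% of all protein-coding genes. Every replicate was higher for the Cpr genes, and the ranges did not overlap. The Wilson intervals of the Cpr shares began at 44.1%, 40.0% and 41.3%. This was at the background of replicate 1 and below that of replicates 2 and 3. Within 1 kb it was 38.6%, 37.1% and 38.6% of Cpr genes, against 39.2%, 42.0% and 44.8% of all protein-coding genes. Within 500 bp it was 24.3%, 24.3% and 21.4% of Cpr genes, against 32.4%, 36.7% and 39.9% of all protein-coding genes. At both of these distances every replicate was lower for the Cpr genes, and the ranges did not overlap. At 1 kb the Wilson intervals of the Cpr shares held the background of each replicate. They were 28.0% to 50.3%, 26.8% to 48.9% and 28.0% to 50.3%. At 500 bp they held it in replicate 1 only. Among genes with 1 TSS the 1 kb shares were 39.7%, 34.9% and 36.5% of Cpr genes, against 32.3%, 34.6% and 37.5% of protein-coding genes. Only replicate 3 was lower there. The nearest-TSS assignment has no limit of distance, and most of these peaks are below the authors' threshold.

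The Blimp-1 site was present within 50 bp of 1 of the 19 summits (5.26%), against 6.31% of all IDR-thresholded summits. The window 500 bp to the right held it at 1 of the 19 peaks (5.26%), against 0.956% of all IDR-thresholded peaks. With 1 mismatch to AGTGAAAG allowed, 5 of the 19 summits (26.3%) held it, against 23.6% of all IDR-thresholded summits. The shorter word CGAAAG, shown in the windows of Cpr97Eb, Cpr78Ca, Cpr23B, Cpr72Eb, Cpr100A and Cpr65Aw, was at 7 of the 19 summits (36.8%), the seventh being that of Cpr49Ag. It was at 10.6% of all IDR-thresholded summits and at 10.5% of those within 1 kb of a protein-coding TSS. It was in 0 of the 19 windows 500 bp to the right, against 5.75% of those of all IDR-thresholded peaks. GAAAC was at 9 of the 19 summits (47.4%), against 24.0% of all IDR-thresholded summits, and in 3 of the 19 flanking windows (15.8%), against 21.7%. The word GAAAGT, whose first bases are also the end of the site, was at 7 of the 19 summits (36.8%), against 19.4% of all IDR-thresholded summits. It was in 2 of the 19 flanking windows (10.5%), against 6.86%. These 3 words were picked after their counts had been seen, so their shares are a description. The median GC content was 40.6% in the windows of the 19 summits, against 34.7% in those of all IDR-thresholded summits, and its part in these counts was not tested.

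The promoters of the family, taken as 250 bases before the first annotated TSS to 50 bases from it on, often held the letters of a TATA box. The letters TATAAA on the sense strand, wholly within the bases from 45 to 11 before the TSS, were in 55.7% of Cpr promoters (39 of 70), against 9.08% of all protein-coding promoters. They were in 58.8% of Cpr promoters with a summit within 1 kb (10 of 17) and in 54.7% of those without (29 of 53). They were in 77.8% of the promoters of 27 Rebers and Riddiford genes with older names (21 genes), so that the letters were common in genes of this type under other symbols too. They were in 53.1% of the promoters of clustered genes and in 61.9% of those of single genes. Promoters of Cpr97Eb and Cpr31A, which have the letters, and of Cpr78Ca, which does not, are shown on the strand of the gene. The 6 capitals mark TATAAA in that stretch, and the single capital marks the first base of the gene.
Cpr97Eb (chr3R:27091081-27091380, minus strand): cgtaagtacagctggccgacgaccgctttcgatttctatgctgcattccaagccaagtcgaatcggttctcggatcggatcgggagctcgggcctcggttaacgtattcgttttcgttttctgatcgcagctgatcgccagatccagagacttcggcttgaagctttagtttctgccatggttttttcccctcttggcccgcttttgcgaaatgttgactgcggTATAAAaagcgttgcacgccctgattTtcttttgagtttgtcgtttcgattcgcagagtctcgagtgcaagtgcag
Cpr31A (chr2L:10053963-10054262, plus strand): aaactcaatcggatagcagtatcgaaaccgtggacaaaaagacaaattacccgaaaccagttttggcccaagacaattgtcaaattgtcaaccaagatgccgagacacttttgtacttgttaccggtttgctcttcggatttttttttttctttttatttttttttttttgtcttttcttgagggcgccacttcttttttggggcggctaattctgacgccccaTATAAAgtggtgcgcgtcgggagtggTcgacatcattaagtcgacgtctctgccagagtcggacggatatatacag
Cpr78Ca (chr3L:21292751-21293050, minus strand): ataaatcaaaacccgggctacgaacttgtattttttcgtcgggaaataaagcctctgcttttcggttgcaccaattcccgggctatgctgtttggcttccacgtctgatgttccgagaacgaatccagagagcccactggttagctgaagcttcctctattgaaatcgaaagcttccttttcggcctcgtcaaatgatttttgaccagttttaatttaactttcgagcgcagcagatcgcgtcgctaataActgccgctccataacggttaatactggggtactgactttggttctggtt

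Genes with TATAAA in that stretch, of which there were 1266 with the 39 Cpr genes among them, had fewer near summits than protein-coding genes in general. A summit lay within 1 kb of 14.8% of them and within 500 bp of 11.1%. The first share was below the 24.3% of Cpr genes, and the second was close to the 11.4% of Cpr genes. Of those with a summit within 1 kb, 25.5% had the nearest one between 500 bp and 1 kb away, against 52.9% for Cpr genes. In the same 300 bases, the Blimp-1 site on either strand was in 4.29% of Cpr promoters (Cpr47Eb, Cpr47Ec and Cpr49Ah), against 3.11% of all protein-coding promoters, and none of the 3 had an IDR-thresholded summit within 1 kb. CGAAAG on either strand was in 21.4% of Cpr promoters, against 16.6% of all protein-coding promoters. TCAGT, a part of the initiator motif, on the sense strand from 10 bases before the TSS to 10 bases from it on, was in 11.4% of Cpr promoters, against 11.7% of all protein-coding promoters.

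Cpr genes with and without a near summit were of similar size. The median gene length was 941 bp for the 17 Cpr genes with a summit within 1 kb and 1148 bp for the 53 without, and the median coding length was 537 bp for those with a summit and 540 bp for those without. Both sets had a median of 2 exons. All protein-coding genes had a median length of 2166 bp and 3 exons.

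In lists of other cuticle genes, 20 of 86 genes (23.3%) had a summit within 1 kb, near the 24.3% of Cpr genes and the 24.9% of all protein-coding genes. The share ran from 7.41% to 52.0% over the 4 lists. Of 27 Rebers and Riddiford genes with older names (Lcp, Acp, Pcp, Ccp, Edg and resilin), 2 (7.41%) had a summit within 1 kb. They were Lcp65Ad, whose peak of rank 7108 also lies within 1 kb of Cpr65Aw, and Edg84A, an ecdysone-dependent pupal cuticle gene with a peak of rank 1785. In the strongest peaks of replicates 1, 2 and 3 it was 2, 3 and 2 of the 27. Of 9 obstructor genes, which encode secreted chitin-binding proteins, obst-E and Gasp had one (22.2%). Of 25 Tweedle genes, which encode another family of cuticle proteins, Twdlbeta, TwdlG and TwdlT had one (12.0%). Of 25 Osiris genes, a clustered family of insect genes with roles in cuticle formation, 13 (52.0%) had one, the strongest at Osi17 with rank 130. These lists were described and not tested, and members of a family can share a peak.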

How the data were processed

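ChIP-seq peak lists of 3 biological replicates of 1 group were used: 1 list per replicate, 1 pooled list and 1 IDR-thresholded list. Per the labels, reads were aligned to dm6; none of the sources names the aligner, the peak caller or the IDR threshold. Each peak carries a signal value in the deposited lists, on a scale not given there, and a deposited −log10 q-value, which was not used. The lists give no read counts, so depth is unknown and Wilson intervals (95%) cover counting error only. With no second group, no test was made.

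Summits were assigned to genes of Ensembl release 115 with Python 3.11.15 and numpy 2.4.6. The assignment was tested on simulated summits. Genomic sequence was RefSeq Release 6, and all 70 Cpr genes had the same coordinates in its gene table. The list, the TSS set, the overlap rule, the cluster gap and the replicates used were varied (closing section). Replicate lists were cut to 9515 peaks, and summits within 100 bp counted as matched. Every Cpr gene with a summit within 1 kb is named. The 6 with the highest signal, the 3 with the strongest peak among genes nearest to a summit only beyond 1 kb, and clusters of 3 or more genes are described. The members, lists and distances were chosen with earlier results of these data known.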

Additional observations from a re-analysis of the deposited data

How the results depend on the processing

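Of 93 alternatives to 8 counts, 63 stayed within 1.5 times the count and 30 did not; those 30 came mainly from the choice of list. With the 4757 strongest IDR-thresholded peaks, Cpr genes numbered 9 within 1 kb, 4 within 500 bp and 11 by nearest TSS, clustered genes within 1 kb 6, and the 86 other cuticle genes within 1 kb 11. With the pooled list these were 28, 17, 37, 20 and 37, and single genes numbered 8. With all peaks of replicates 1, 2 and 3, Cpr genes numbered 27, 26 and 27 within 1 kb, 17, 17 and 15 within 500 bp, and 39, 36 and 37 by nearest TSS. By nearest TSS the share of Cpr genes was above that of all protein-coding genes in the pooled list (52.9% against 39.9%) and in all 3 of these lists (55.7% against 44.1%, 51.4% against 42.8% and 52.9% against 44.3%). Within 1 kb it was below in all 3 of these lists, within counting error (38.6% against 39.2%, 37.1% against 42.0% and 38.6% against 44.8%). Within 500 bp it was also below (24.3% against 32.4%, 24.3% against 36.7% and 21.4% against 39.9%). In the pooled list it was 40.0% against 38.1% within 1 kb and 24.3% against 33.1% within 500 bp. Clustered genes numbered 20 and 21 with all peaks of replicates 2 and 3, single genes 8 with those of replicate 1, and other cuticle genes 39, 34 and 35 with those of replicates 1, 2 and 3. Longer lists give more genes by construction. Leaving out a replicate kept only peaks matched in the other two, and left 12 to 14 Cpr genes within 1 kb and 5 to 6 within 500 bp. Without replicate 2, 5 remained of the 8 within 500 bp, and Cpr65Av, Cpr67Fb and Cpr100A were lost. The site remained at 0 to 1 of the summits left. With all replicates and 1 mismatch allowed, 5 of the 19 summits held it. Clusters cut at 5 or 20 kb left 13 clustered and 4 single genes with a summit, but the shares changed at 5 kb. They were 31.0% of 42 clustered and 14.3% of 28 single genes at 5 kb. At 20 kb they were 26.5% of 49 and 19.0% of 21, as at 10 kb. No paired analysis was possible because there is only 1 group. The alternatives for other cuticle genes, and those without a replicate for the site, were chosen after seeing the data. Without read counts, binding below the lists' reach was not measurable.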
